A study of Mus musculus with 6 samples.

Results

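Genes of the colony-stimulating factor family were examined in CD11B+ cells from injured kidneys. The family as measured here consisted of 8 genes, chosen by symbol from the 46603 genes of the count data: the ligands Csf1 and Il34, the receptor Csf1r, the 4 chains Csf2ra, Csf2rb, Csf2rb2 and Il3ra of the beta common receptor family, and the receptor Csf3r. All 8 were found, and all 8 were among the 15440 genes that passed the filter on low counts and were tested. PTEC DN RAR mice carried PEPCK CRE and the Rosa26-LSL-RARaT403X allele, a dominant negative retinoic acid receptor that is switched on where Cre has acted, and the PEPCK promoter directs Cre to proximal tubular epithelial cells (PTECs). Cre- controls carried the same Rosa26-LSL-RARaT403X allele without Cre, so the allele itself was shared and its activation in PTECs was not. All mice were male, 10 to 12 weeks old, and had both renal pedicles clamped for 28 minutes (ischemia-reperfusion-induced AKI, IRI-AKI). Kidneys were taken on day 3, cells were isolated with anti-CD11B magnetic beads, and polyA RNA from 3 PTEC DN RAR mice and 3 Cre- controls was sequenced, 1 library per mouse. The comparison asks whether blocking RAR signaling in the tubule was accompanied by other transcript levels in the myeloid cells of the same kidney.

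Between 29318041 and 46517005 reads per library were counted on genes, so that 3 reads equaled 0.0636 to 0.101 CPM, the counts-per-million scale with TMM library sizes. Rara, the gene from which the transgene derives, had 35.3 to 45.4 CPM in controls and 30.7 to 37.6 CPM in PTEC DN RAR libraries, a log2 difference of -0.33 that did not pass the test (edgeR quasi-likelihood test, adjusted p = 0.0628). The transgene acts in PTECs, so this check does not bear on its activity. Itgam, which encodes CD11B, was abundant in both genotypes but lower in PTEC DN RAR libraries, at 1897 ± 139 CPM in controls and 1217 ± 207 CPM in PTEC DN RAR mice (n = 3 each, SD; edgeR adjusted p = 0.00818). Resident macrophage markers were abundant in every library, with a summed level of 15527 to 20411 CPM in controls and 17763 to 22707 CPM in PTEC DN RAR mice, and 2 of 8 passed the test, 1 in each direction. Infiltrating monocyte markers summed to 2451 to 2690 CPM and 1213 to 1383 CPM (6 of 8 lower), and neutrophil markers to 313 to 663 CPM and 164 to 253 CPM (5 of 9 tested lower). Proximal tubule markers summed to 433 to 607 CPM and 1587 to 2410 CPM (12 of 12 higher), markers of the loop, distal tubule and collecting duct to 1238 to 1785 CPM and 4261 to 8194 CPM (6 of 8 higher), and endothelial markers to 82.4 to 124 CPM and 243 to 298 CPM (8 of 8 higher). No marker in these 6 lists was at 0 in all libraries. Mitochondrial transcripts held 5.03% to 8.77% of reads in controls and 10.4% to 12.1% in PTEC DN RAR libraries. In bulk libraries such as these, fewer cells of a type and less RNA per cell cannot be told apart, and CPM values are relative to everything else in the library.

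Colony-stimulating factors are secreted proteins that keep myeloid cells alive and direct their growth and maturation. CSF1 and IL-34 share the receptor tyrosine kinase CSF1R, on which most tissue macrophages, those of the kidney included, depend. GM-CSF, IL-3 and IL-5 each bind their own alpha chain, which pairs with a common beta chain that signals through JAK2 and STAT5. Mice have a second beta chain, encoded by Csf2rb2, that serves IL-3 alone. G-CSF acts through CSF3R, a receptor of the neutrophil lineage. In the kidney after injury, tubular cells are a known source of CSF1 and IL-34.

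Transcripts of both beta chains were lower and those of Csf2ra and Il34 were higher in PTEC DN RAR mice. Across the family, 2 of 8 members passed in the lower direction, against 17.1% of all genes tested, and 2 of 8 in the higher direction, against 23.6% (edgeR quasi-likelihood test, Benjamini-Hochberg adjusted over 15440 genes). The remaining 4 members, Csf1, Csf1r, Il3ra and Csf3r, did not pass. In either direction that made 4 of 8 members, against 40.6% of all genes. The same 4 members were those with no overlap between the genotypes, which occurred in 24.2% of all genes in the lower, 29.2% in the higher and 53.4% in either direction. When each mouse was left out in turn, the count of 2 in the higher direction became 3 without Cre- control 1 and 1 without Cre- control 2, Cre- control 3, PTEC DN RAR 1 or PTEC DN RAR 2, and the count of 2 in the lower direction was the same in all 6 fits. With 2 of 8 in each direction, the family's shares lay near those of all genes. Its median log2 difference was -0.08, with a range of -0.68 to 0.97, and the median of all genes tested was 0.04.

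**Figure D1:**
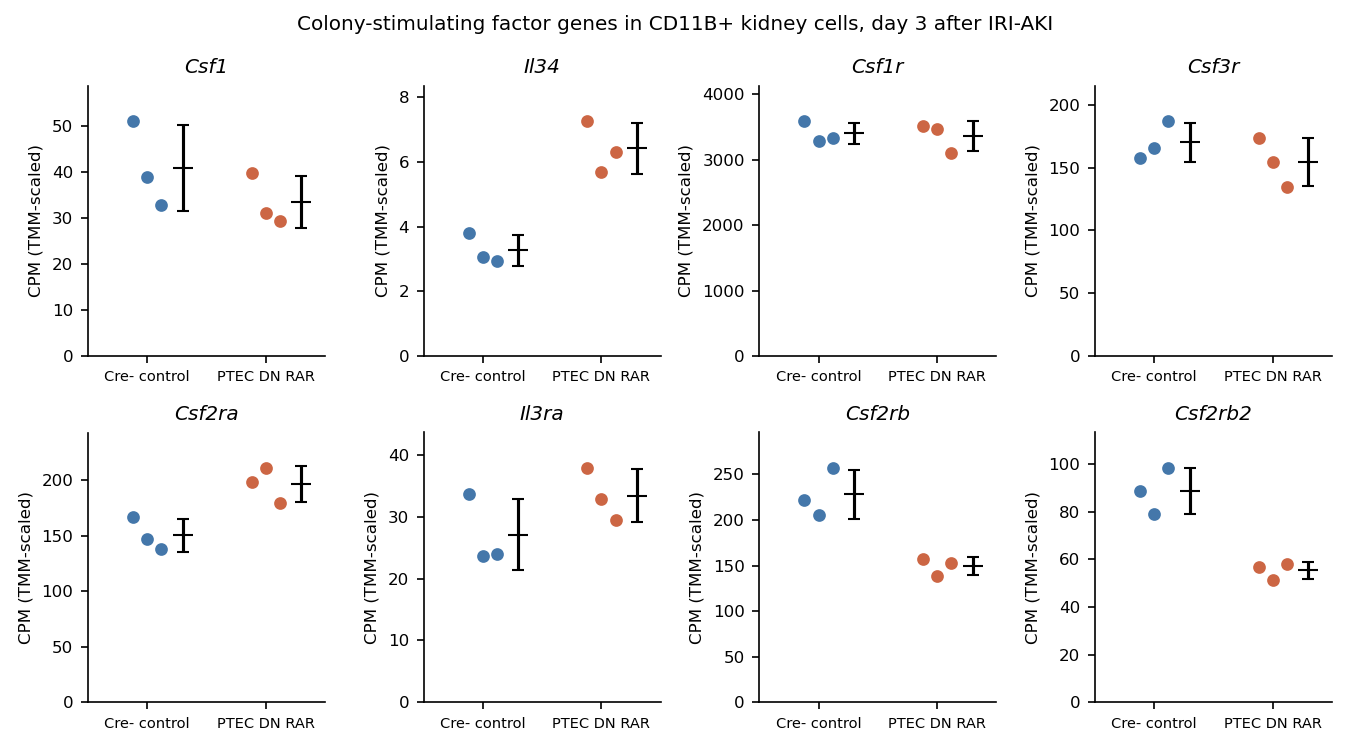
Level of each of the 8 members in CPM (linear axes from 0, a separate scale for each gene) in the 3 Cre- control and 3 PTEC DN RAR libraries. Points are single mice, and the bars beside them give the mean and SD of the group. Csf2rb and Csf2rb2 points of the PTEC DN RAR mice all lie below those of the controls, Csf2ra and Il34 points all lie above, and the points of the other members overlap.

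In these libraries the family spanned a wide range of levels. Levels per length, on the transcripts-per-million scale (TPM) and computed from the counts and the summed exon length of each gene, allow genes to be compared with each other. Csf1r stood at the top with a mean of 1652 TPM over the 6 libraries, which ranked it 52 among all genes by that measure. Csf2ra followed at 169 TPM, then Csf3r at 127, Csf2rb at 73.9, Csf2rb2 at 43.2, Il3ra at 28.5, Csf1 at 19.8 and Il34 at 6.89 TPM. The order had 2 places in the controls where neighbors did not differ beyond their spread. Csf2ra, at 152 ± 2.78 TPM, overlapped Csf3r, at 138 ± 22.6 TPM, and Il3ra, at 26.3 ± 3.28 TPM, overlapped Csf1, at 22.3 ± 3.17 TPM (SD, n = 3). In PTEC DN RAR mice Csf2ra (187 ± 14.8 TPM) and Csf3r (117 ± 14.0 TPM) lay apart, and it was Csf2rb2 (31.9 ± 2.09 TPM) and Il3ra (30.7 ± 3.77 TPM) that overlapped. Both ligands therefore sat below every receptor chain in the mean over all libraries.

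**Figure D2:**
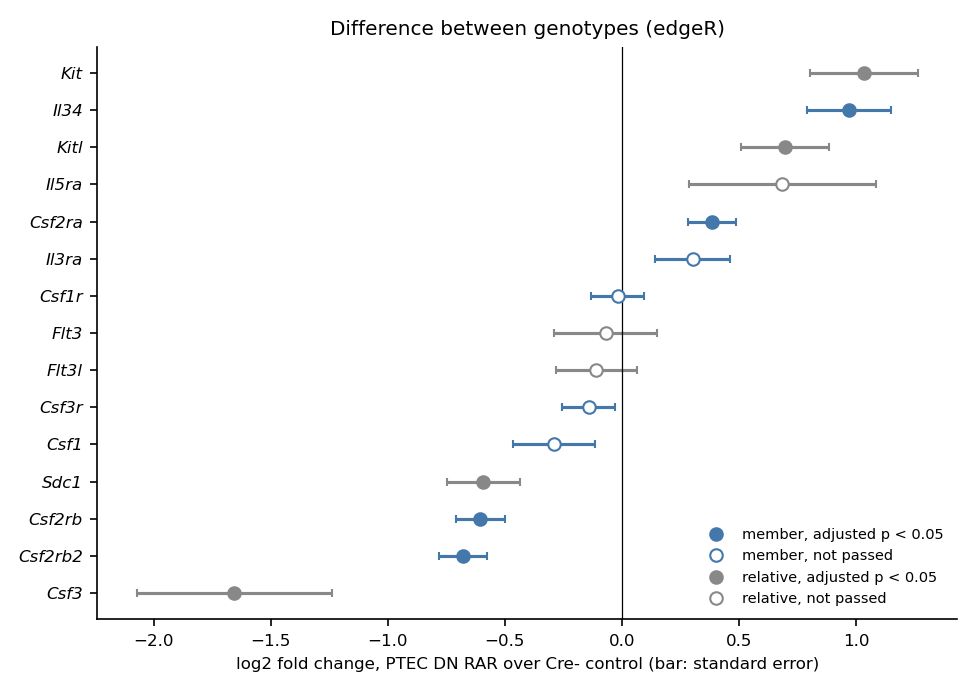
Log2 fold change, PTEC DN RAR over Cre- control, of the 8 members (blue) and of the 7 tested relatives described further on (gray), from the edgeR fit across all genes. Bars are standard errors and filled points passed the test. Among the members, Il34 (0.97) and Csf2ra (0.39) lie to the higher side, Csf2rb (-0.61) and Csf2rb2 (-0.68) to the lower side, and the other 4 members did not pass.

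The ligands parted. Il34 (ENSMUSG00000031750, GRCm38, chr8:110741829-110805924, minus strand), the alternative ligand of CSF1R, had 3.82, 3.05 and 2.95 CPM in the 3 Cre- controls against 7.26, 5.70 and 6.32 CPM in the 3 PTEC DN RAR mice. Every PTEC DN RAR library was above every control. The mean was 3.27 ± 0.475 CPM in controls and 6.43 ± 0.786 CPM in PTEC DN RAR mice (n = 3 each, SD), a 1.96-fold rise with a log2 difference of 0.97 (SE 0.18, edgeR adjusted p = 0.00389). These values rest on few reads, 91 to 149 per control library and 242 to 304 per PTEC DN RAR library. Exons of Il34 share 75 bases with the antisense gene Gm15895, which had 8 to 18 reads in controls and 13 to 38 in PTEC DN RAR libraries, and whether the counting used strand is not given in the sources used here. Proximal tubule and distal tubule markers rose in the same libraries (12 of 12 and 6 of 8, summed levels above). Their part in the Il34 result was not tested.

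Csf1 (ENSMUSG00000014599, chr3:107741048-107760469, minus strand), the main growth factor of macrophages, did not follow Il34. Its level was 51.1, 38.9 and 32.9 CPM in controls and 39.9, 31.2 and 29.5 CPM in PTEC DN RAR mice. The groups overlapped, and the highest library was Cre- control 1. Means were 41.0 ± 9.31 and 33.5 ± 5.61 CPM (n = 3 each, SD), a log2 difference of -0.29 (SE 0.17, edgeR adjusted p = 0.214). It was -0.10 without Cre- control 1 (adjusted p = 0.613), -0.47 without Cre- control 3 (adjusted p = 0.0720), -0.44 without PTEC DN RAR 1 (adjusted p = 0.102) and -0.05 on pan-leukocyte scaling (adjusted p = 0.828). The ratio of Csf1 to Il34 within a library does not depend on how libraries are scaled. Per exon length, Csf1 exceeded Il34 by 4.97-, 4.73- and 4.14-fold in controls and by 2.04-, 2.03- and 1.73-fold in PTEC DN RAR mice. The log2 ratio was lower by 1.25 on average in PTEC DN RAR mice, with no overlap between the genotypes. This ratio and those that follow are given as descriptions, without a test.

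Csf1r (ENSMUSG00000024621, chr18:61100598-61132149, plus strand), the receptor of both ligands, differed little between the genotypes. It had 3591, 3292 and 3335 CPM in controls and 3522, 3469 and 3097 CPM in PTEC DN RAR mice. The groups overlapped, and the lowest and highest of the 6 libraries were 1 PTEC DN RAR and 1 control library. Means were 3406 ± 161 and 3363 ± 232 CPM (n = 3 each, SD), with a log2 difference of -0.02 (SE 0.11, edgeR adjusted p = 0.909). Its mean CPM ranked 22 among all genes. Hmgxb3 lies on the opposite strand and shares 873 exon bases with Csf1r, at 928 to 1359 reads per library, far below the reads of Csf1r. Adgre1, which encodes the macrophage marker F4/80, had 1441 ± 40.0 CPM in controls and 1536 ± 270.1 CPM in PTEC DN RAR mice (edgeR adjusted p = 0.626). Adgre1 was named after its values were seen. Relative to Itgam, which fell, Csf1r was higher in each PTEC DN RAR library: the ratio per exon length was 1.80, 1.46 and 1.45 in controls against 2.24, 2.32 and 2.75 in PTEC DN RAR mice.

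The beta chains moved together. Csf2rb (ENSMUSG00000071713, chr15:78325752-78353847, plus strand), the signaling chain shared by the receptors of GM-CSF, IL-3 and IL-5, had 222, 205 and 257 CPM in controls and 158, 139 and 153 CPM in PTEC DN RAR mice. Each PTEC DN RAR library was below each control. The mean fell from 228 ± 26.7 to 149.9 ± 9.61 CPM (n = 3 each, SD), which was 1.52-fold lower, with a log2 difference of -0.61 (SE 0.11, edgeR adjusted p = 0.00292). Csf2rb2 (ENSMUSG00000071714, chr15:78282507-78305721, minus strand), the beta chain of IL-3 alone, had 88.5, 79.0 and 98.5 CPM in controls and 56.8, 51.3 and 58.0 CPM in PTEC DN RAR mice. Its groups did not overlap either. The mean fell from 88.7 ± 9.73 to 55.4 ± 3.59 CPM, which was 1.60-fold lower (log2 difference -0.68, SE 0.10, edgeR adjusted p = 0.00154). Both genes kept their direction and passed the test under all 14 alternative ways of processing the counts. The differences were smallest when libraries were scaled on pan-leukocyte genes, at -0.36 for Csf2rb (edgeR adjusted p = 0.0471) and -0.43 for Csf2rb2 (adjusted p = 0.0264). Those pan-leukocyte genes were themselves lower in PTEC DN RAR mice, with 6 of 18 tested passing in the lower direction, a median log2 difference of -0.24, and summed levels of 11538 to 12240 CPM in controls and 9182 to 10564 CPM in PTEC DN RAR mice. Infiltrating monocyte markers (6 of 8 lower) and neutrophil markers (5 of 9 tested lower) fell in the same libraries, with the summed levels given above, and their part in the fall of the beta chains was not tested. Relative to Itgam, Csf2rb overlapped between the genotypes, with a ratio per exon length of 0.0881, 0.0723 and 0.0891 in controls against 0.0796, 0.0737 and 0.108 in PTEC DN RAR mice.

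The pair are close copies, which bears on how far their counts are separate measurements. The coding sequence of Csf2rb has 2691 bases and that of Csf2rb2 has 2637 bases in GENCODE M21, and 2505 of 2631 aligned bases were identical (95.2%). Identity was uneven along the pair. The window of 60 coding bases in which they differed most lies in exon 4 of both genes, at chr15:78338893-78338952 (plus strand) for Csf2rb and chr15:78294379-78294438 (minus strand) for Csf2rb2, and is shown because reads from it tell the genes apart. The 13 bases that differ are in capitals.
Csf2rb: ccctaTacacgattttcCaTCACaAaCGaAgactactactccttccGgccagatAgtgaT
Csf2rb2: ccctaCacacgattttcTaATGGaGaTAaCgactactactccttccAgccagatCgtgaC
The longest stretch without any difference spans 242 bases of exon 14, at chr15:78348577-78348818 (plus strand) for Csf2rb and chr15:78284630-78284871 (minus strand) for Csf2rb2. It is shown because a read that lies wholly within it matches both genes alike.
Csf2rb and Csf2rb2: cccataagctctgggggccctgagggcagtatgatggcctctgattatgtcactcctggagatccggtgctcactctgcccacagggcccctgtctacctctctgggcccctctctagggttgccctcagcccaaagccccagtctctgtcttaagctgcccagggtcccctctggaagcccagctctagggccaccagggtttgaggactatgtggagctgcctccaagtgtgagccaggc
Of all windows of 50 bases in the Csf2rb transcript, 18.9% also occur in that of Csf2rb2. The share is 11.0% for windows of 75 bases, 7.16% for 100 bases and 3.58% for 150 bases. Read length is not given in the sources used here, and reads with more than 1 alignment were left out of the deposited counts. Most of each transcript could thus be told apart at any of these lengths, but the level of each gene is uncertain to the extent of the shared part. Csf2rb2 took 28.5%, 27.8% and 27.7% of the reads of the pair in controls against 26.5%, 26.9% and 27.5% in PTEC DN RAR mice. The log2 ratio of Csf2rb to Csf2rb2 was higher by 0.07 in PTEC DN RAR mice, a small difference without overlap between the genotypes.

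The alpha chains did not fall with the beta chains. Csf2ra (ENSMUSG00000059326, chr19:61223957-61228429, minus strand), the GM-CSF binding chain, had 166, 147 and 138 CPM in controls and 199, 211 and 179 CPM in PTEC DN RAR mice. All PTEC DN RAR libraries lay above the controls, the nearest being Cre- control 1. The mean rose 1.31-fold, from 150.3 ± 14.7 to 196 ± 16.0 CPM (n = 3 each, SD), with a log2 difference of 0.39 (SE 0.10, edgeR adjusted p = 0.0171). The call held in all 8 alternatives that used all 6 libraries, and in 2 of the 6 fits that left out 1 mouse and so have fewer samples. The difference was 0.33 without Cre- control 2 (edgeR adjusted p = 0.0721), 0.28 without Cre- control 3 (adjusted p = 0.113), 0.38 without PTEC DN RAR 1 (adjusted p = 0.0508) and 0.33 without PTEC DN RAR 2 (adjusted p = 0.0619). Tubular and endothelial markers rose in the same libraries (12 of 12 proximal tubule, 8 of 8 endothelium). Dendritic cells also carry the GM-CSF receptor, and their markers summed to 189 to 264 CPM in controls and 232 to 260 CPM in PTEC DN RAR mice. Of these 8 markers, Xcr1 (log2 difference 2.46, edgeR adjusted p = 0.00415) and Clec9a (1.31, adjusted p = 0.00684) rose, Ccr7 fell (-0.74, adjusted p = 0.0149), and 5 did not pass, the 3 genes being named after their values were seen. The part of any of these markers in the Csf2ra result was not tested.

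Il3ra (ENSMUSG00000068758, chr14:14346275-14356011, plus strand), the IL-3 binding chain, had 33.7, 23.6 and 23.9 CPM in controls and 37.9, 32.9 and 29.4 CPM in PTEC DN RAR mice. Cre- control 1 lay within the range of the PTEC DN RAR libraries and the other 2 controls lay below it. Means were 27.1 ± 5.72 and 33.4 ± 4.26 CPM, a log2 difference of 0.30 (SE 0.16, edgeR adjusted p = 0.159). Of the 6 fits that left out 1 mouse, 1 passed, that without Cre- control 1 (0.49, edgeR adjusted p = 0.0181). The difference was 0.17 without Cre- control 2 (adjusted p = 0.464), 0.17 without Cre- control 3 (adjusted p = 0.492) and 0.20 without PTEC DN RAR 1 (adjusted p = 0.408).

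The balance of GM-CSF receptor chains was therefore different in the 2 genotypes. Per exon length, transcripts of Csf2ra exceeded those of Csf2rb by 1.90-, 1.81- and 1.35-fold in controls and by 3.20-, 3.85- and 2.97-fold in PTEC DN RAR mice. The log2 ratio was 0.74 ± 0.27 in controls and 1.73 ± 0.19 in PTEC DN RAR mice (n = 3 each, SD), a difference of 0.99. The size of the folds depends on the length used, and the difference between genotypes does not. By the longest transcript, mean levels of Csf2ra and Csf2rb were 154 and 109 TPM in controls. In PTEC DN RAR mice they were 193 and 68.6 TPM. For Csf2ra over Csf2rb2 the difference was 1.06, and for Il3ra over Csf2rb2 it was 0.99, neither with overlap. Such ratios compare transcripts and not receptor proteins on the cell surface, and Csf2ra and Csf2rb can stem from different cells of the isolate.

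**Figure D3:**
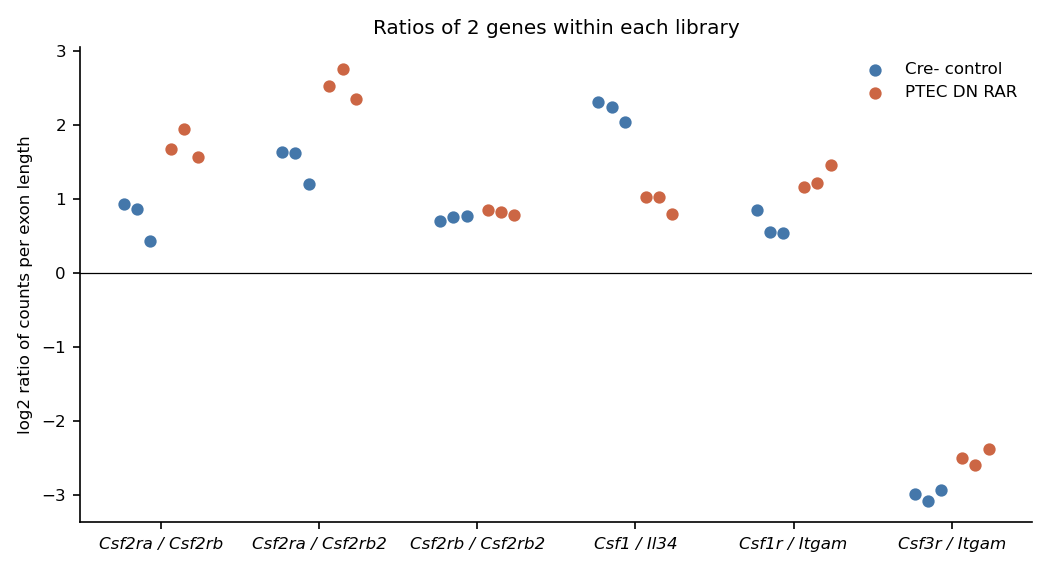
Log2 ratios between members, or of a member to Itgam, within each library (per exon length), with points for single mice of each genotype. The ratio of Csf2ra to Csf2rb lies between 0.44 and 0.93 in Cre- controls and between 1.57 and 1.94 in PTEC DN RAR mice, and that of Csf2rb to Csf2rb2 between 0.71 and 0.77 and between 0.78 and 0.85.

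The promoters of these genes were read because members of the family moved apart. RefSeq sequence of the 250 bases before the RefSeq transcription start (GRCm38.p6) was held for 5 of the 8 members. These were Csf1, Csf2ra, Csf2rb2, Csf3r and Il3ra, and Csf1r, Csf2rb and Il34 were not matched. The RefSeq start can differ from the gene coordinates printed for each member. The windows of Csf2ra, Csf3r and Il3ra run past the start in those coordinates, into the gene. On either strand, GAGGAA, the core recognized by the myeloid factor PU.1, was found in 23.3% of all 32851 promoters of that table. It occurred at 2 adjoining places in Csf2ra and at 1 place each in Csf2rb2 and Csf3r, and not in the window of Csf1 or Il3ra. By the printed gene coordinates, the place in Csf3r and the one in Csf2ra nearer the start lie inside the gene. The other place in Csf2ra crosses the edge of the gene. The letters TTCNNNGAA, the core of STAT binding sites, which reads the same on both strands and can overlap GAGGAA, were found in 7.02% of promoters and among the 5 members at 1 place, in Csf2rb2, apart from its GAGGAA. The windows of Csf2ra (chr19:61228419-61228668, minus strand) and Csf2rb2 (chr15:78305722-78305971, minus strand) are shown as the pair of matched members that passed the test, in opposite directions. Capitals mark GAGGAA or its reverse complement.
Csf2ra: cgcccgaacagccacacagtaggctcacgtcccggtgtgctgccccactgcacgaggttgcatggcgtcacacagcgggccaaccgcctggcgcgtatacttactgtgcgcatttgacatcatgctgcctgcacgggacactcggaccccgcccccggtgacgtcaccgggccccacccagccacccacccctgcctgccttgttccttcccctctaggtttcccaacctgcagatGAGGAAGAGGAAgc
Csf2rb2: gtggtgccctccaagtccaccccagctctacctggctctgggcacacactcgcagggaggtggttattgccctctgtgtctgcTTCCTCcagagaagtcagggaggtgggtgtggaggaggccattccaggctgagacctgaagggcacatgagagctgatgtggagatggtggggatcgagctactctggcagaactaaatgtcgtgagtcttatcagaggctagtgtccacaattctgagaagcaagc
GAGGAA was present in Csf2ra, which rose, in Csf2rb2, which fell, and in Csf3r, which did not pass. Csf1 and Il3ra, without it, did not pass either. Any part of these letters in the differences between genotypes was not tested. A match in sequence is a description and does not show that a factor bound there.

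Csf3r (ENSMUSG00000028859, chr4:126024550-126044440, plus strand), the G-CSF receptor, had 157, 166 and 187 CPM in controls and 173, 154 and 135 CPM in PTEC DN RAR mice. The groups overlapped, with means of 170.0 ± 15.2 and 154 ± 19.2 CPM (n = 3 each, SD) and a log2 difference of -0.14 (SE 0.11, edgeR adjusted p = 0.346). Leaving out each mouse in turn gave differences of -0.24 (without PTEC DN RAR 1, adjusted p = 0.159) to -0.10 (without PTEC DN RAR 3). Of the 9 neutrophil markers tested, 5 fell and 4 did not pass, with log2 differences of -1.53 to -0.12 over the 9. Cxcr2, a chemokine receptor of neutrophils, named after its values were seen, fell from 15.0 ± 5.36 to 6.47 ± 1.36 CPM (log2 difference -1.21, SE 0.26, edgeR adjusted p = 0.00708). The part of neutrophils in the level of Csf3r was not tested. Within a library, the ratio of Csf3r to Csf1r overlapped between the genotypes, with a difference of -0.13 on the log2 scale. Relative to Itgam, which fell, Csf3r was higher in each PTEC DN RAR library, with a ratio per exon length of 0.126, 0.118 and 0.130 in controls against 0.176, 0.165 and 0.192 in PTEC DN RAR mice.

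Ligands of the beta common and CSF3 receptors were near or below detection in this isolate. No read of Il3 or Il5 was counted in any library, which allows up to 0.0636 to 0.101 CPM per library, counting error only. Csf2, which encodes GM-CSF, had 1 read in 1 control and 1 read in 1 PTEC DN RAR library, so that its change could not be tested at this depth. Csf3, which encodes G-CSF, had 22, 11 and 14 reads in controls and 4, 8 and 7 reads in PTEC DN RAR mice. The groups did not overlap, with a log2 difference of -1.66 (SE 0.42, edgeR adjusted p = 0.0138), on values of 0.369 to 0.564 CPM in controls and 0.0956 to 0.188 CPM in PTEC DN RAR mice. Without PTEC DN RAR 1 the difference was -1.44 and no longer passed (adjusted p = 0.0514).

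Relatives of the family were read as a list of 11 genes, of which 7 were tested, 2 passed in the lower direction (Csf3 and Sdc1) and 2 in the higher (Kit and Kitl), against 17.1% and 23.6% of all genes tested. Kit, a receptor tyrosine kinase close to CSF1R in sequence, rose from 10.2 ± 2.66 to 20.8 ± 5.52 CPM (n = 3 each, SD; log2 difference 1.03, SE 0.23, edgeR adjusted p = 0.00825). Its ligand Kitl, also called stem cell factor, rose from 14.7 ± 2.71 to 23.9 ± 5.16 CPM (log2 difference 0.70, SE 0.19, edgeR adjusted p = 0.0178), and Kitl no longer passed without PTEC DN RAR 2 (0.51, adjusted p = 0.0557). Endothelial markers (8 of 8 higher), tubular markers and stromal markers (5 of 7 tested higher, summing to 88.3 to 102 CPM in controls and 114 to 205 CPM in PTEC DN RAR mice) moved with this pair, and their part was not tested. Mast cell, basophil and eosinophil markers, other cells that can carry KIT, summed to 14.1 to 20.3 CPM in controls and 13.1 to 25.5 CPM in PTEC DN RAR mice, with 1 of 4 tested higher. Sdc1, which encodes syndecan-1, a binding partner of IL-34, fell from 23.5 ± 4.94 to 15.6 ± 1.05 CPM (log2 difference -0.59, SE 0.16, edgeR adjusted p = 0.0166). Its call was lost when libraries were scaled on pan-leukocyte genes (-0.34, adjusted p = 0.168) and without PTEC DN RAR 2 (-0.55, adjusted p = 0.0524). The dendritic cell receptor Flt3 (log2 difference -0.07, edgeR adjusted p = 0.822), its ligand Flt3l (-0.11, adjusted p = 0.641) and the IL-5 receptor chain Il5ra (0.68, adjusted p = 0.201) did not pass. Ptprz1, another receptor of IL-34, had too few reads to be tested.

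In the list for CSF1R signaling, 7 of 25 genes passed in the lower direction, against 17.1% of all genes tested. In the higher direction 1 of 25 passed, against 23.6%. The median log2 difference of the 25 genes was -0.15. Among the 3 most abundant of them, the adaptor Tyrobp had 976 ± 159 CPM in controls and 813 ± 116 CPM in PTEC DN RAR mice (edgeR adjusted p = 0.184), and the phosphatase Ptpn6 had a log2 difference of -0.03 (adjusted p = 0.839). The kinase Lyn fell from 521 ± 21.0 to 417 ± 42.1 CPM (log2 difference -0.32, SE 0.10, edgeR adjusted p = 0.0326). The adaptor Dok2, an inhibitor of signaling by tyrosine kinases, had the largest difference of this list, from 73.0 ± 9.30 to 25.0 ± 3.05 CPM (log2 difference -1.54, SE 0.13, edgeR adjusted p = 0.0002). The single gene that rose was the kinase Src (log2 difference 0.60, SE 0.20, edgeR adjusted p = 0.0398). The list also holds Adam17 (log2 difference -0.10, edgeR adjusted p = 0.449) and Rhbdf2 (-0.59, adjusted p = 0.0034). Both are genes of CSF1R shedding and do not act downstream of the receptor. Rhbdf2 is 1 of the 7 that passed in the lower direction. Dok2, Src, Adam17 and Rhbdf2 were named after their values were seen. Dok2 passed in all 14 alternatives, whereas Lyn and Src each passed in 9 of 14. Among the lost fits, Src was at 0.38 without Cre- control 2 (edgeR adjusted p = 0.125) and at 0.42 without PTEC DN RAR 3 (adjusted p = 0.154). Lyn was at -0.08 on pan-leukocyte scaling (adjusted p = 0.569). When libraries were scaled on pan-leukocyte genes, which moved the median of all genes by 0.25 on the log2 scale, 1 gene passed in the lower and 3 in the higher direction. The count of 7 in the lower direction fell to 2 without Cre- control 3, to 3 without PTEC DN RAR 2 or PTEC DN RAR 3, and to 4 without PTEC DN RAR 1. The calls over all genes fell too. In the lower direction they were 1874 of 15961 without Cre- control 3 and 641 of 15440 on pan-leukocyte scaling.

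In the JAK-STAT branch used by the beta common and CSF3 receptors, 5 of 14 genes passed, each in the lower direction, against 17.1% of all genes tested, and the median log2 difference was -0.18. Socs3, a feedback inhibitor of CSF3R signaling, fell from 712 ± 117 to 374 ± 53.5 CPM (log2 difference -0.93, SE 0.15, edgeR adjusted p = 0.00212). Mcl1, which encodes a survival protein of myeloid cells, fell from 777 ± 42.0 to 518 ± 19.1 CPM (log2 difference -0.58, SE 0.09, edgeR adjusted p = 0.00175). The kinases Jak1 (-0.27, adjusted p = 0.0405) and Jak2 (-0.27, adjusted p = 0.0424) fell slightly, and Pim1, a kinase induced by cytokines through STAT5, fell by 0.75 on the log2 scale (adjusted p = 0.00202). Cish, a standard target of STAT5, had a log2 difference of 0.14 with a standard error of 0.28 (adjusted p = 0.713). Jak2, Pim1 and Cish were named after their values were seen. Socs3, Mcl1 and Pim1 passed in all 14 alternatives, and Jak1 and Jak2 in 6 of 14 each. On pan-leukocyte scaling Jak1 (-0.02, adjusted p = 0.856) and Jak2 (-0.02, adjusted p = 0.893) were near 0. On pan-leukocyte scaling 3 genes passed in the lower and 2 in the higher direction, and 3 passed in the lower direction in each of the 5 fits that left out a mouse other than Cre- control 1. Members of this list are used by many cytokines besides colony-stimulating factors.

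Among 12 transcription factors of myeloid receptor genes, 11 were tested and 5 passed, each in the lower direction, against 17.1% of all genes tested, with a median log2 difference of -0.47. Maf fell from 505 ± 26.6 to 341 ± 30.6 CPM (log2 difference -0.56, SE 0.10, edgeR adjusted p = 0.00288). Others that passed, named after their values were seen, were Cebpb (-0.86), Ets2 (-0.75) and Egr2 (-0.52). Spi1, which encodes PU.1, did not pass and had 359 ± 26.4 and 363 ± 33.0 CPM (log2 difference 0.01, edgeR adjusted p = 0.928). Maf, Cebpb and Ets2 passed in all 14 alternatives. Egr2, whose groups overlapped, passed in 9 of 14 and was lost without Cre- control 1 (-0.41), Cre- control 3 (-0.51), PTEC DN RAR 1 (-0.52) or PTEC DN RAR 2 (-0.43) and on pan-leukocyte scaling (-0.27, adjusted p = 0.311). On pan-leukocyte scaling 3 factors passed in the lower and 1 in the higher direction. Monocyte markers fell in the same libraries (6 of 8), and their part in these lists was not tested.

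**Figure D4:**
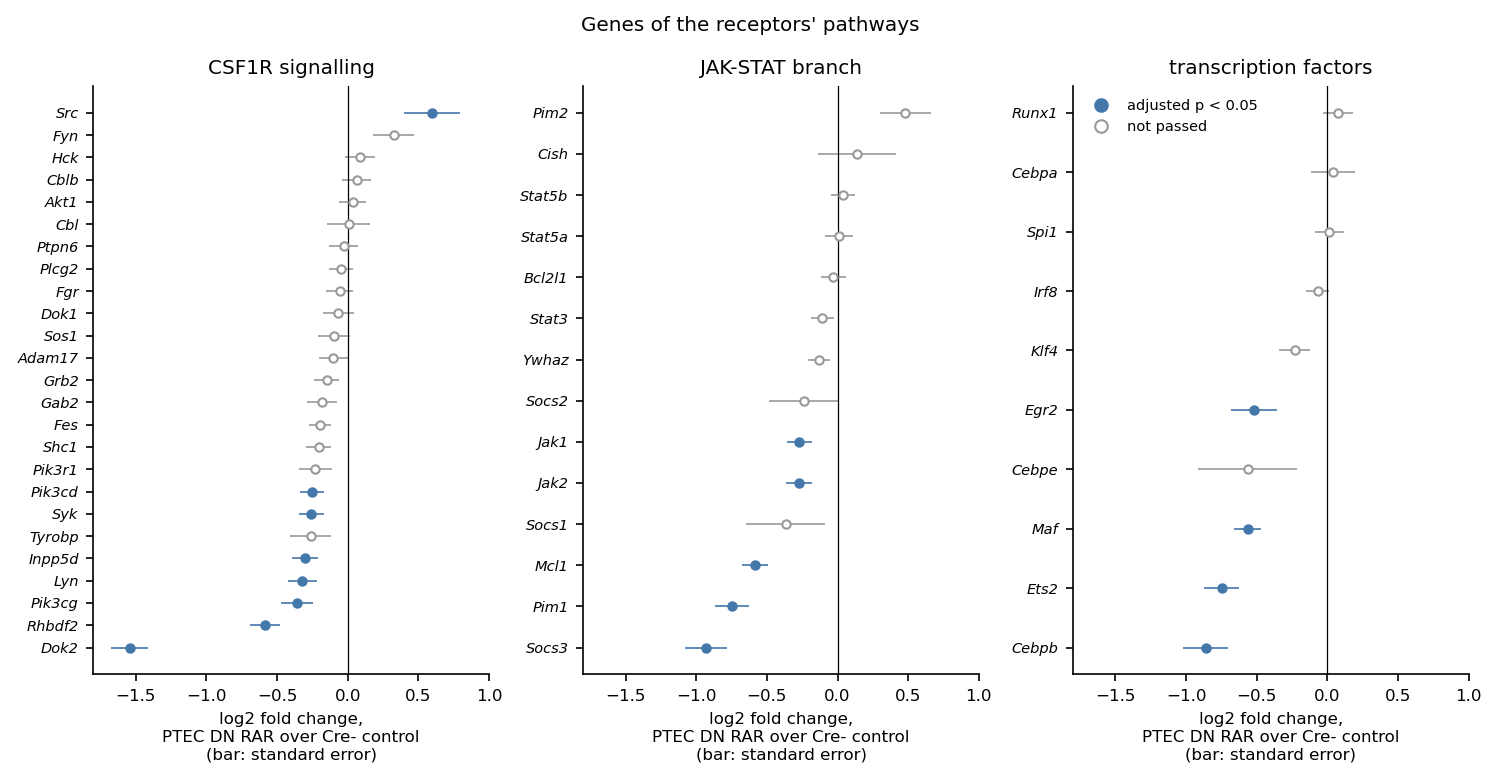
Log2 fold change (PTEC DN RAR over Cre- control, bars are standard errors) of tested genes of the 3 pathway lists, with filled points for those past an adjusted p of 0.05. The filled points on the lower side number 7, 5 and 4 and are led by Dok2, Socs3 and Cebpb, and Src is the filled point on the higher side.

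The genes whose levels ran most nearly parallel to each member were read over the 6 libraries, from 8985 genes with a mean of at least 10 CPM. Spg20 was nearest to both Csf2rb (Pearson r 0.999) and Csf2rb2 (r 0.999), followed for both by Aifm2 (r 0.997 and 0.998). Il34 ran with Mgat4b (r 0.998), and Csf2ra with Dpp4 (r 0.995) and Cyp27a1 (r 0.992). Csf1r ran with Fcer1g (r 0.993) and C1qb (r 0.990), both genes of macrophages. Csf1 was nearest to Mad2l2 (r 0.993) and Ccm2 (r 0.984), Il3ra to Syngr2 (r 0.997) and Stub1 (r 0.986), and Csf3r to Yaf2 (r 0.989) and Fam217b (r 0.974). These are descriptions over 6 points that share libraries and genotypes, with no test.

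The calls were compared over the alternatives. Il34, Csf2rb and Csf2rb2 passed in the same direction in all 14, with log2 differences of 0.85 to 1.21, -0.72 to -0.36 and -0.80 to -0.43. When the libraries were scaled on pan-leukocyte genes, Csf1r was at 0.23 (edgeR adjusted p = 0.117) and Csf3r at 0.10 (adjusted p = 0.491), so the sign of these small differences depends on the scaling, while Il3ra was at 0.54 and passed (adjusted p = 0.0238).

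**Figure D5:**
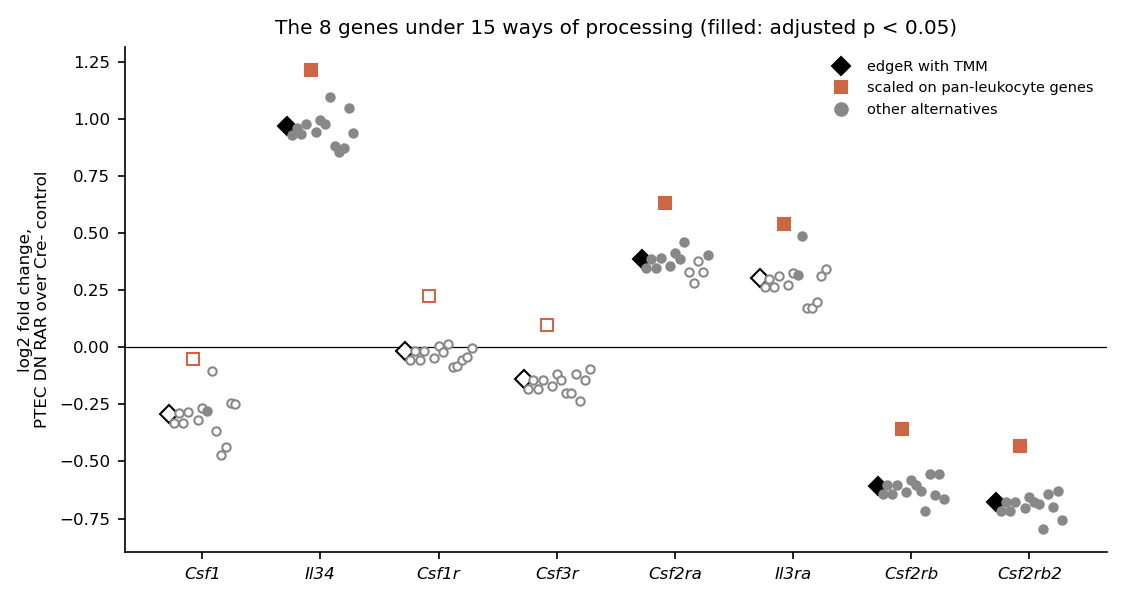
Log2 fold change of each member in the reported fit (diamond), on pan-leukocyte scaling (square) and under the other alternatives (circles), filled where the adjusted p was under 0.05. Il34 stays above 0.85 and Csf2rb and Csf2rb2 stay at or below -0.36, whereas Csf1r lies on both sides of 0.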

How the data were processed

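CD11B+ kidney cells of 3 PTEC DN RAR mice and 3 Cre- controls were profiled by bulk RNA-seq, 1 library per mouse. The authors deposited raw read counts per Ensembl gene without normalization. Per the labels, the submitters' processing notes name STAR 2.5.0a, HTSeq 0.6.1, edgeR, limma and GRCm38, without their roles. Between 42.9% and 47.8% of alignments per library were recorded as not unique and lay outside the gene counts, as did 2.39% to 3.97% without a feature and 0.457% to 0.527% ambiguous. Of 46612 gene lines, 9 repeated an identifier, leaving 46603 genes. The table holds 0 columns of other samples.

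Genes were filtered with filterByExpr (minimum count 10), scaled by TMM and tested with edgeR 4.0.16 (quasi-likelihood, R 4.3.3) across all 6 libraries, with Benjamini-Hochberg adjustment over 15440 genes and a threshold of 0.05. The script was tested on simulated data. P-values measure the spread between mice. CPM used TMM library sizes. TPM used the union of exons in GENCODE M21 (GRCm38). Sequences came from GENCODE M21 transcripts and RefSeq promoters. Intervals for reads at 0 used a limit of 3 counts.

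Alternatives were DESeq2 1.42.0, limma-voom (limma 3.58.1), RLE or library size scaling, scaling on 19 pan-leukocyte genes, no filter, at least 10 counts in every library, a replicate block and leaving out each mouse. Named genes were the 8 members, all family relatives, the 3 most abundant genes of each other pathway list, the 2 genes most parallel to each member, Itgam and Rara, and others are marked. Values of 2 genes that this rule names are not reported here, and 1 of them is not plotted. Members and lists were chosen with earlier results of these data known. The lists are not independent of those results.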

Additional observations from a re-analysis of the deposited data

How the results depend on the processing

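Scaling on pan-leukocyte genes was the alternative that changed the calls over all genes most. It shifted the median of all genes by 0.25 (log2), gave 641 lower and 5308 higher genes in place of 2636 and 3640, and raised the share of higher calls from 58.0% to 89.2%. Under it 1 family relative, 1 CSF1R signaling gene, 3 JAK-STAT genes and 3 transcription factors were lower, and 3 CSF1R signaling genes, 2 JAK-STAT genes and 1 transcription factor were higher. Csf1r turned to 0.23, Csf3r turned to 0.10, and Il3ra passed at 0.54. Among the members 2 were lower and 3 higher under it, and Csf2ra kept its call, which some fits without 1 mouse lost. With at least 10 counts in every library, Csf1r turned to 0.0065, and 1 family relative and 3 JAK-STAT genes were lower. That filter removed the relative Csf3, with 4, 8 and 7 reads in PTEC DN RAR libraries. RLE scaling left 0 higher CSF1R signaling genes (edgeR).

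Leaving out each mouse in turn gave 1874 to 2824 lower and 2433 to 3699 higher genes, 1 to 3 members higher, 1 to 2 family relatives lower and 1 to 3 higher, 2 to 6 CSF1R signaling genes lower and 0 to 1 higher, and 3 to 5 JAK-STAT genes lower. Log2 differences ranged from -0.47 to -0.10 for Csf1, -0.085 to 0.016 for Csf1r, 0.28 to 0.46 for Csf2ra and 0.17 to 0.49 for Il3ra. Fits without 1 mouse have fewer samples.

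The labels give same-numbered mice a shared number and no other link. Their deviations correlated at -0.01, 0.21 and 0.03, which cannot decide whether they were paired, with 3 mice in each group. With the replicate block, 2606 genes were lower and 3612 higher, 3 members lower and 3 higher, since Csf1 (-0.28, adjusted p = 0.0401) and Il3ra (0.31, adjusted p = 0.0416) passed, and 2 CSF1R signaling genes were higher.

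With the longest transcript as length, Csf2rb was at 88.9, Csf2rb2 at 35.0 and Csf3r at 107 TPM, in the same order among the members. The cause of the other changes was not tested. The depth limits Csf2, Csf3, Il3, Il5 and Ptprz1.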
